A study of Mus musculus with 12 samples.

Results

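The unfolded protein response and ER-associated degradation were followed through 37 genes in RNA of the mouse tibia shaft. A gene was a member if its symbol in the deposited count table equalled one of the 37 symbols of the list, and all 37 were found among the 47069 genes counted. They comprised 12 chaperones and co-chaperones of the endoplasmic reticulum (ER), 4 protein disulfide isomerases, 6 stress sensors and transcription factors, 4 targets of ATF4 and CHOP, and 11 genes of ER-associated degradation. The rule uses no measured value, although the list was chosen with earlier results of these data known.

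The study asked how loss of sclerostin, the osteocyte product of *Sost* that restrains bone formation, acts on a mouse model of osteogenesis imperfecta. The shafts came from male mice, 8 weeks of age, and were flushed to remove marrow; poly(A) RNA of each mouse gave 1 library, with 4 mice in each of 3 groups. Both mutant groups, Jrt;Sost-het and Jrt;Sost-ko, carried the dominant Jrt splice mutation on 1 copy of *Col1a1*, which encodes the alpha 1 chain of collagen I, and Jrt;Sost-ko mice lacked *Sost* in addition. The labels give only the *Col1a1* genotype of the Jrt;Sost-het mice, and that they had 1 intact copy of *Sost* comes from the study's methods. The WT mice were wild type for both genes. All 3 groups were of mixed FVB/C57BL6 background, but the WT mice were bred in a parallel colony. In any comparison with WT, genotype and colony therefore cannot be told apart. Mutant mice also had fewer intact copies of *Sost* than WT mice, so these comparisons do not separate the Jrt allele from *Sost* dose. Both mutant groups share the Jrt allele, and their comparison sets mice with no intact copy of *Sost* against mice with 1.

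Secretory proteins fold in the ER with the help of chaperones, lectins and disulfide isomerases, and an excess of unfolded protein there is sensed by IRE1 alpha, PERK and ATF6. Their signals, carried by spliced XBP1, by ATF4 and CHOP and by cleaved ATF6, raise the transcription of chaperones, of enzymes that bring terminally misfolded chains back to the cytosol for the proteasome, and of genes of amino acid supply. Osteoblasts secrete collagen I in bulk, and chains that cannot form a normal triple helix are known to burden this system in some forms of osteogenesis imperfecta. Gene counts report the level of the transcripts, and show neither the splicing of *Xbp1* mRNA nor the phosphorylation or cleavage of the sensors.

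Reads counted on genes came to between 24366061 and 29431764 per Jrt;Sost-het library, between 28255411 and 37370099 per Jrt;Sost-ko library and between 28737276 and 44418863 per WT library. *Sost* stood at 0.328 to 1.29 CPM (counts scaled to 1000000 per library) in Jrt;Sost-ko, as the label of that group requires. It stood at 27.2 to 70.3 CPM in Jrt;Sost-het and at 28.6 to 72.4 CPM in WT. These ranges overlapped and do not show the number of intact copies in Jrt;Sost-het. The bone identity of the tissue was borne out by 13 osteoblast markers, whose summed level was between 22903 and 69503 CPM. The shafts were not pure bone, however: 16 skeletal muscle markers summed to between 34.2 CPM in Jrt;Sost-ko mouse 4 and 34987 CPM in WT mouse 4. Markers of blood cell lineages were high in every mouse, although the shafts were flushed. The 10 neutrophil markers summed to between 16703 CPM in WT mouse 4 and 31159 CPM in WT mouse 2. The 10 erythroid markers summed to between 16164 CPM in Jrt;Sost-het mouse 4 and 31208 CPM in WT mouse 1. Which cells gave the RNA of the members was not tested. Epidermal markers, 10 in number, were high in 2 WT mice alone, with 164 CPM in mouse 3 and 674 CPM in mouse 4 against at most 15.6 CPM elsewhere. Chondrocyte markers reached 4940 CPM in Jrt;Sost-het mouse 1 and 4086 CPM in WT mouse 4, and lay at or below 1984 CPM in the other mice. In such bulk RNA, fewer cells of a type and less RNA per cell cannot be told apart. Nothing in the labels gives a preparation or sequencing batch.

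Some of the members carry a short promoter element through which the stress response is known to act, and these elements are shown because they tie the gene list to its known regulators. The ER stress response element (ERSE), bound by cleaved ATF6 together with NF-Y, was searched as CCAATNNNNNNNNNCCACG on both strands of the RefSeq promoter windows (build GRCm38.p6, 250 bases before to 50 after each start). Of the 37 members, 33 had at least 1 window. The element was found in 9 of these 33 genes, and in 0.119% of all 32851 windows. The 10 copies, each read in the direction of the element with 5 bases on either side, are given here with the fixed letters in capitals. Distances are to the RefSeq start of the window. For *Hspa5* this start lies inside the gene as annotated in GENCODE, and so does its ERSE.

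Hspa5, chr2:34772020-34772048, plus strand, 65 bases before the start: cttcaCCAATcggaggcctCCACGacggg
Hsp90b1, chr10:86705528-86705556, plus strand, 107 bases before the start: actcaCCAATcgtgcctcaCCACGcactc
Hsp90b1, chr10:86705633-86705661, minus strand, 212 bases before the start: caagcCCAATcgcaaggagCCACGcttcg
Calr, chr8:84847070-84847098, plus strand, 162 bases before the start: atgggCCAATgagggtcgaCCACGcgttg
Canx, chr11:50325795-50325823, minus strand, 145 bases before the start: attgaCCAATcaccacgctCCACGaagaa
Dnajc3, chr14:118937822-118937850, plus strand, 105 bases before the start: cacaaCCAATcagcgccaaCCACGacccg
Creld2, chr15:88819515-88819543, minus strand, 126 bases before the start: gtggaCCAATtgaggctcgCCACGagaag
Pdia6, chr12:17266486-17266514, plus strand, 98 bases before the start: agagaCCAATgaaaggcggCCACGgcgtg
Derl3, chr10:75893237-75893265, minus strand, 156 bases before the start: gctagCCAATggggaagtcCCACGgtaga
Syvn1, chr19:6046527-6046555, plus strand, 44 bases before the start: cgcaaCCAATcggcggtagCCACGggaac

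The short form, ERSE-II, was searched as ATTGGNCCACG and found in *Herpud1* and *Dnajb11*, against 0.0365% of all windows. The element of XBP1 (UPRE), searched as TGACGTGG, was found in *Vcp* alone among the members and in 0.676% of all windows. The C/EBP-ATF response element (CARE) through which ATF4 acts was searched as TGATGNAA and found in *Chac1*, *Trib3*, *Asns* and *Herpud1*, against 3.97% of all windows. *Herpud1* was the only member to hold elements of both arms, and the 120 bases before its start are shown with the CARE (on the opposite strand) and the ERSE-II in capitals. *Syvn1* is shown in the same way with its ERSE, since it is 1 of the 2 members whose values did not overlap between Jrt;Sost-ko and WT mice. The other, *Pdia4*, had a window in which none of the elements searched was found. A match is a run of letters in a window and was not tested as a binding site.

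Herpud1, chr8:94386309-94386428, plus strand: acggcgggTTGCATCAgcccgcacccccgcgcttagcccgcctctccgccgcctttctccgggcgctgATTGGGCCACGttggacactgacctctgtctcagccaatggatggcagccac
Syvn1, chr19:6046456-6046575, plus strand: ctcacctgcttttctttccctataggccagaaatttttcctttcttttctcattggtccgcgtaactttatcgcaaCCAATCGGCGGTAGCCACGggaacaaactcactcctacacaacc

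Every member was counted in every mouse, and their levels spanned a wide range. On the scale of CPM per kb of exon, the mean over the 12 mice was highest for *Calr* (254), *Hsp90b1* (155), *Hspa5* (128) and *Pdia3* (127), all folding factors of the ER lumen. The 3 sensors lay far lower, *Eif2ak3* at 10.6, *Atf6* at 8.92 and *Ern1* at 8.61 CPM per kb. The lowest were *Chac1* (3.24), *Trib3* (1.07) and *Derl3* (0.960), which are known to be strongly inducible in other settings. *Hspa5* (113 to 164 CPM per kb over the mice) and *Pdia3* (117 to 148.5) were neighbours in this order whose ranges overlapped. Summed over the 37 members, the level was between 5588 and 6951 CPM, with a mean of 5805 ± 154 in WT, 5858 ± 242 in Jrt;Sost-het and 6287 ± 493 CPM in Jrt;Sost-ko (SD, n = 4 each).

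**Figure D1:**
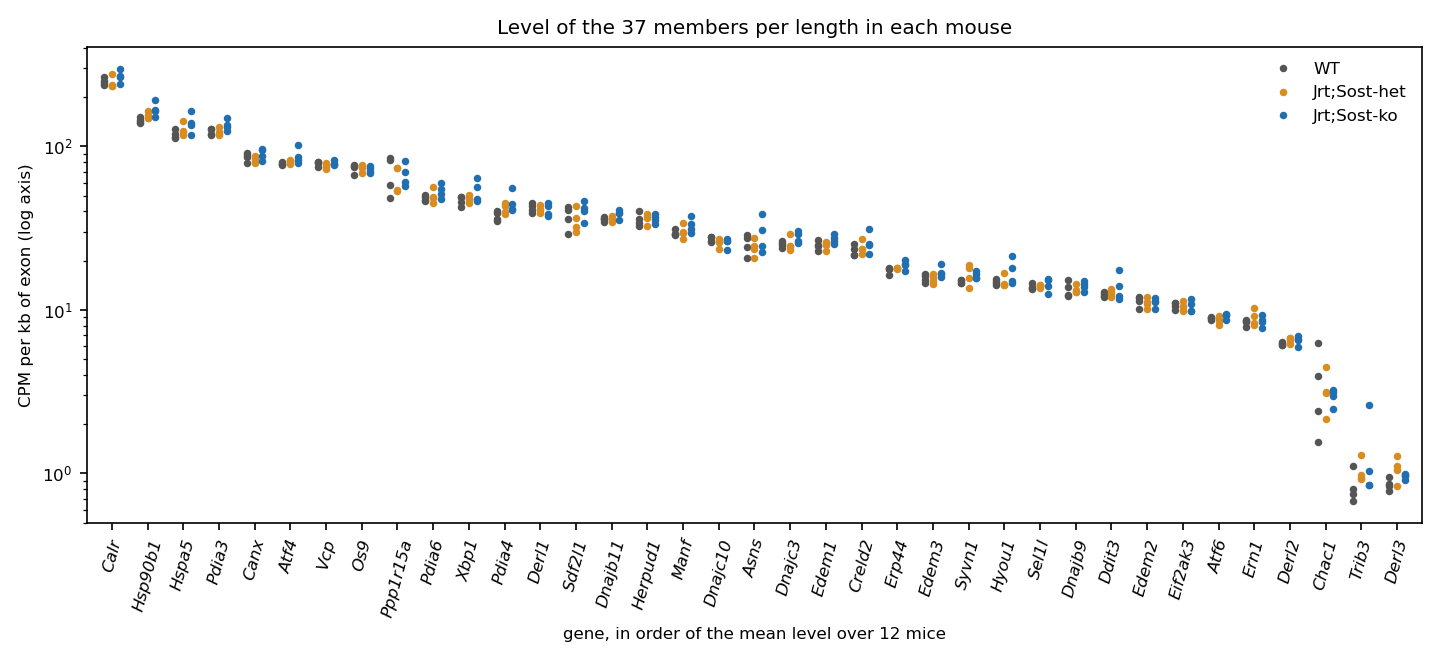
Level of each member in CPM per kb of exon (vertical log axis), with genes in order of their mean over the 12 mice along the horizontal axis and 1 point per mouse coloured by group. *Calr*, with a mean of 254 CPM per kb, stands first and *Derl3*, with 0.960, last, and the points of the 3 groups lie over each other for most genes.

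Whether mutant collagen I came with a changed level of these genes was asked first by comparing Jrt;Sost-het mice, which also had only 1 intact copy of *Sost*, with WT mice. All 37 members passed the filter on low counts in each of the 4 comparisons made. None of the 37 had an adjusted p under 0.05 in edgeR's quasi-likelihood test, and none had an unadjusted p under 0.05. Of the 16775 genes tested, 0% were called at the adjusted threshold, while 1.25% were higher and 0.894% lower at an unadjusted p under 0.05. DESeq2 and limma-voom called 0 members as well, with 0 and 1 members under an unadjusted p of 0.05 in either direction, against 2.4% and 4.59% of all genes in the same tools. No member had groups that did not overlap, against 1.5% of all genes. The median log2 fold change of the members was 0.0088, with 22 above 0 and 15 below, beside a median of 0.0036 over all genes tested. This median ran from -0.017 without Jrt;Sost-het mouse 3, when 14 members were above 0, to 0.023 without Jrt;Sost-het mouse 4. For 32 of the 37 members the fitted level in Jrt;Sost-het was within 1.1-fold of WT in either direction, and for 34 the 95% interval lay within 1.5-fold, the exceptions being *Trib3*, *Chac1* and *Derl3*.

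The second comparison, of Jrt;Sost-ko with Jrt;Sost-het, asked whether *Sost* loss altered the members on a background of mutant collagen I. Again, 0 of 37 had an adjusted p under 0.05 in edgeR, against 0.00597% of the 16739 genes tested, which is *Sost* itself. At an unadjusted p under 0.05 there were also 0 members, where 2.64% of all genes were higher and 2.38% lower. DESeq2 and limma-voom called 0 members too, and had 1 and 6 members under an unadjusted p of 0.05 in either direction, beside 5.41% and 8.86% of all genes in those tools. The groups overlapped for every member, against 3.05% of all genes without overlap. Still, 28 members had a log2 fold change above 0 and 9 below, with a median of 0.11 beside 0.0013 over all genes. Leaving out Jrt;Sost-ko mouse 2 brought this median down to 0.039, with 26 of 37 above 0. The 95% interval lay within 1.5-fold for 34 members, all but *Trib3*, *Chac1* and *Asns*.

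In the third comparison, of Jrt;Sost-ko with WT, the 3 members *Pdia4*, *Hsp90b1* and *Syvn1* had an unadjusted p under 0.05, each with a higher level in Jrt;Sost-ko. Of the 17155 genes tested, 2.26% were higher and 1.63% lower at that threshold. No member passed the adjusted threshold in edgeR (0.00583% of genes did, again *Sost*), and the adjusted p was 0.9996 for each of the 3. DESeq2 and limma-voom likewise called 0 members, with 4 and 9 under an unadjusted p of 0.05 in either direction, where 4.61% and 8.98% of all genes were under it. *Pdia4* and *Syvn1* were also the 2 members whose groups did not overlap, against 2.35% of all genes. Of the 37 members, 30 had a log2 fold change above 0, with a median of 0.13 beside -0.0030 over all genes. Without Jrt;Sost-ko mouse 2 the median was 0.062, with 30 members above 0 and 0 under an unadjusted p of 0.05 (2.11% of all genes in either direction). The interval lay within 1.5-fold for 34 members, all but *Trib3*, *Chac1* and *Asns*. Marker lists of cell types also had medians away from 0, with 0 of their genes called: the 13 osteoblast markers had a median of 0.26 between the Jrt groups (10 above 0), 0.20 in Jrt;Sost-het against WT and 0.45 in Jrt;Sost-ko against WT (13 above 0 in both). The 16 muscle markers had medians of -0.99 (0 above 0), 0.084 (9 above 0) and -0.93 (0 above 0) in the same order. The 9 osteocyte markers had medians of 0.34, 0.057 and 0.41, the 9 chondrocyte markers of -1.72 (1 above 0), 0.37 (9 above 0) and -1.38 (1 above 0), and the 7 adipocyte markers of -0.10, 0.41 and 0.34. Of the 10 epidermal markers 3 were tested, with medians of -0.18, -5.19 and -5.16. The osteoclast, erythroid, neutrophil, plasma cell and B cell lists had medians between -0.20 and 0.12. Their part in the members' levels was not tested beyond the muscle covariate and the relations across mice.

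With both Jrt groups taken against WT in 1 fit of the 12 mice, 0 of 37 members had an adjusted p under 0.05 in edgeR, against 0.0058% of 17245 genes. *Hsp90b1* and *Pdia4* were the only members with an unadjusted p under 0.05, both higher, where 1.96% of all genes were higher and 1.25% lower. DESeq2 and limma-voom called 0 and had 2 each at the unadjusted threshold in either direction, with 3.48% and 6.91% of all genes. The median of the members was 0.061, with 29 above 0. The 2 pairwise comparisons with WT and this contrast use the same 4 WT mice and are not independent of each other.

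**Figure D2:**
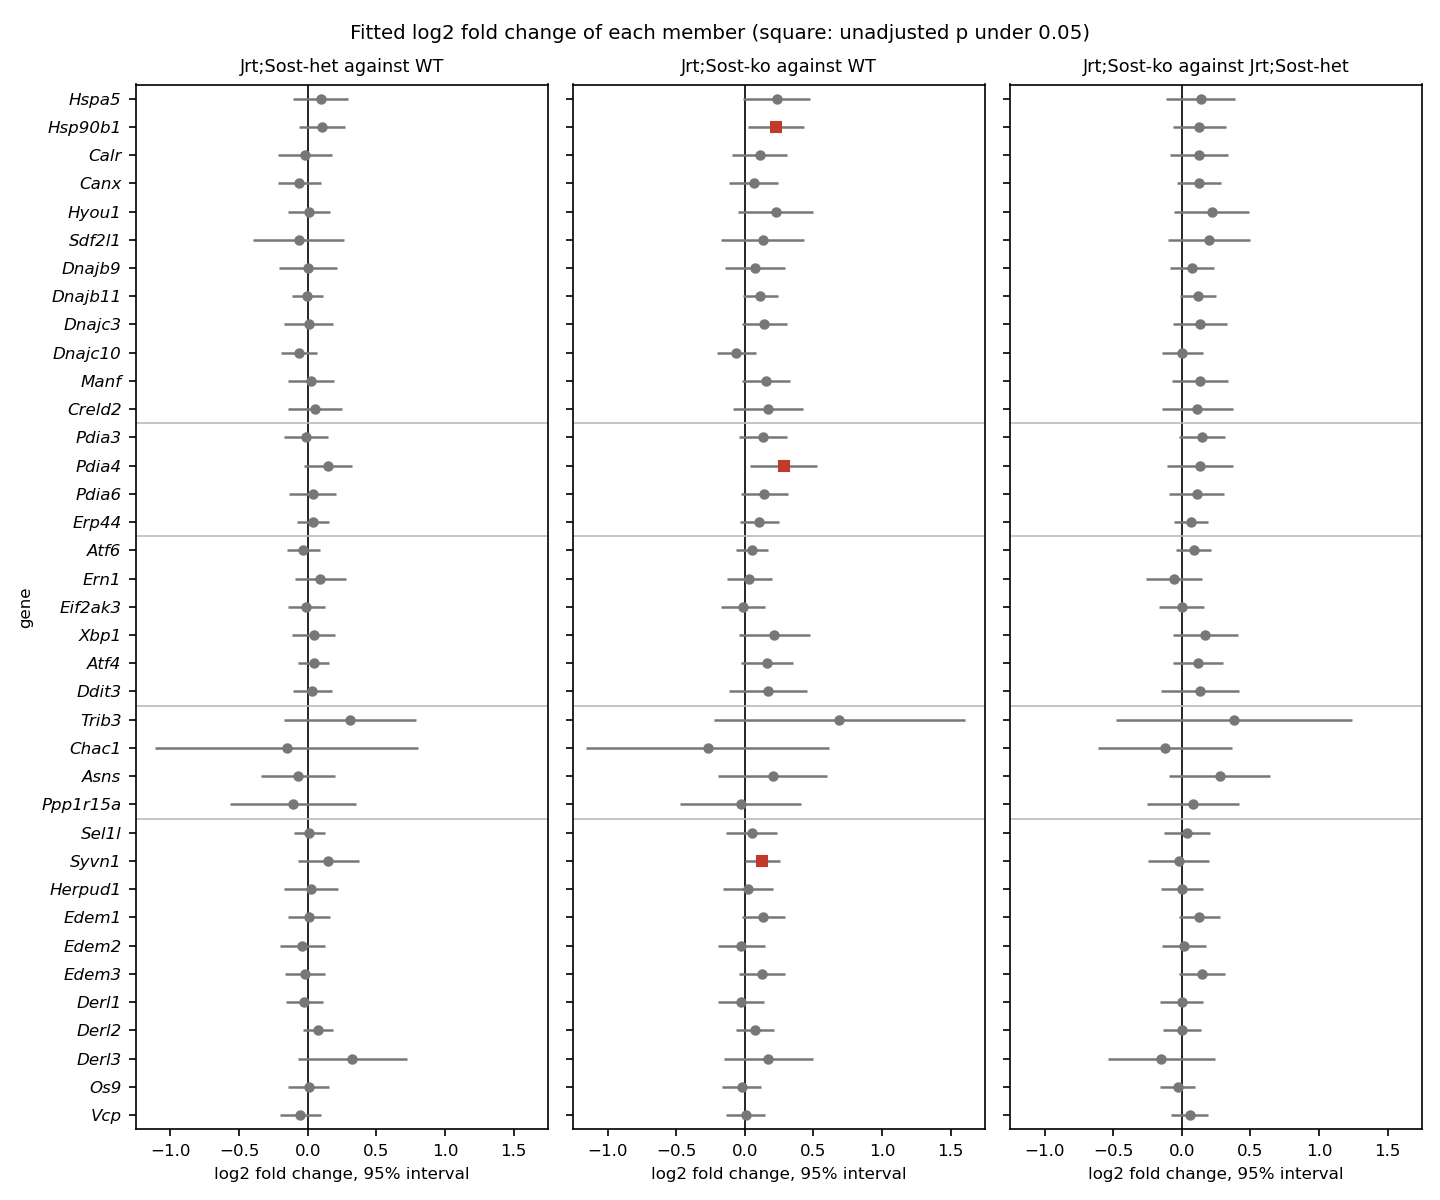
Fitted log2 fold change of each member (point) with its 95% interval (line) in the 3 pairwise comparisons, 4 mice against 4 in each, with grey lines between the roles and red squares for an unadjusted p under 0.05. The 3 squares, *Hsp90b1*, *Pdia4* and *Syvn1*, are all in Jrt;Sost-ko against WT, and the intervals are widest for *Trib3* and *Chac1*.

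All 12 chaperones had a fitted log2 fold change above 0 in Jrt;Sost-ko relative to Jrt;Sost-het, between 0.0042 (*Dnajc10*) and 0.22 (*Hyou1*), with a median of 0.13, but 0 had an unadjusted p under 0.05 in edgeR and the groups overlapped for each. Without Jrt;Sost-ko mouse 2, 11 of 12 were above 0 and the median was 0.071. *Hyou1* was highest in that mouse, at 154 CPM, where its group had a mean of 125 ± 22.3 CPM (SD, n = 4). Of the same 12 genes, 7 were above 0 in Jrt;Sost-het against WT, with a median of 0.0041. Leaving out Jrt;Sost-het mouse 3 brought this to 2 of 12 and a median of -0.045. Against WT, 11 of 12 were above 0 in Jrt;Sost-ko, the exception being *Dnajc10*, which encodes a reductase of misfolded chains, at -0.062.

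*Hspa5* encodes BiP, the ER Hsp70 that binds unfolded chains and keeps the sensors silent, and lies at chr2:34771970-34777547 on the plus strand. Its level was 501, 478, 542 and 484 CPM in the 4 WT mice, 495, 517, 607 and 523 CPM in the Jrt;Sost-het mice and 589, 692, 497 and 574 CPM in the Jrt;Sost-ko mice. The 3 groups overlapped, with Jrt;Sost-ko mouse 2 the highest and WT mouse 2 the lowest of the 12. In Jrt;Sost-het against WT the log2 fold change was 0.095 ± 0.088 (SE; adjusted p = 1.0 in edgeR), and the upper end of its 95% interval was 1.23-fold. Leaving out 1 mouse took this value to between 0.030, when Jrt;Sost-het mouse 3 was absent, and 0.14, when WT mouse 3 was. Between the Jrt groups it was 0.14 ± 0.11 (adjusted p = 0.901 in edgeR), and 0.052 without Jrt;Sost-ko mouse 2. Against WT, leaving out this mouse gave 0.15 for Jrt;Sost-ko, where all 4 mice gave 0.23.

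*Hsp90b1* encodes GRP94, the ER member of the Hsp90 family, and lies at chr10:86690209-86705509 on the minus strand. WT mice had 571, 580, 611 and 556 CPM, Jrt;Sost-het mice 626, 601, 664 and 599 CPM and Jrt;Sost-ko mice 660, 769, 611 and 672 CPM. WT mouse 3 (611.2 CPM) lay just above Jrt;Sost-ko mouse 3 (611.1 CPM), and the other 3 WT mice lay below every Jrt;Sost-ko mouse. The log2 fold change of Jrt;Sost-ko against WT was 0.23 ± 0.088 (SE; unadjusted p = 0.0306 and adjusted p = 0.9996 in edgeR; exact two-sided permutation p = 0.0571). Against Jrt;Sost-het it was 0.13 ± 0.085 (unadjusted p = 0.171), and 0.062 without Jrt;Sost-ko mouse 2. In the annotation, 15.7% of the exon bases of *Hsp90b1* are shared with other genes, and the strand setting of the counting is not given in the sources used here. The share was 10.9% for *Ddit3*, 9.25% for *Manf*, 8.05% for *Eif2ak3* and 7.26% for *Vcp*, and at most 2.87% for every other member.

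*Calr*, the lectin chaperone calreticulin, had 702, 725, 760 and 682 CPM in WT mice, 685, 675, 799 and 673 CPM in Jrt;Sost-het mice and 765, 860, 688 and 772 CPM in Jrt;Sost-ko mice. Jrt;Sost-het mouse 3 stood well above the other 3 mice of its group. The log2 fold change was -0.019 ± 0.087 in Jrt;Sost-het against WT and 0.13 ± 0.093 in Jrt;Sost-ko relative to Jrt;Sost-het (SE), the latter 0.071 without Jrt;Sost-ko mouse 2. The membrane-bound partner of calreticulin, *Canx*, had a mean of 404 ± 23.9 CPM in WT, 388 ± 16.2 CPM in Jrt;Sost-het and 422 ± 31.0 CPM in Jrt;Sost-ko (SD, n = 4 each). Of the smaller co-chaperones, *Sdf2l1* varied most between WT mice, with a coefficient of variation of 16.0%, and *Dnajb11* least, with 2.85%.

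All 4 protein disulfide isomerases, which form and shuffle disulfide bonds, had a log2 fold change above 0 in both comparisons of Jrt;Sost-ko, with a median of 0.12 against Jrt;Sost-het and 0.14 against WT. Without Jrt;Sost-ko mouse 2 these medians were 0.042 and 0.084. *Pdia4* (ERp72) lies at chr6:47796141-47813430 on the minus strand. It stood at 85.9, 83.7, 96.9 and 93.3 CPM in WT, at 104, 91.9, 108 and 94.9 CPM in Jrt;Sost-het and at 106, 133, 98.4 and 98.7 CPM in Jrt;Sost-ko. The lowest Jrt;Sost-ko mouse was thus above the highest WT mouse, while Jrt;Sost-het mice overlapped with both groups. Its log2 fold change of Jrt;Sost-ko against WT was 0.28 ± 0.11 (SE; unadjusted p = 0.0296 and adjusted p = 0.9996 in edgeR). Without Jrt;Sost-ko mouse 2 the value was 0.17. The exact two-sided permutation p over all 8 mice was 0.0286, the smallest that 4 against 4 mice can give. In Jrt;Sost-het against WT the value was 0.15 ± 0.077 (unadjusted p = 0.0856), the smallest p among the members of that comparison.

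*Pdia3* (ERp57), which works on glycoproteins held by calreticulin and calnexin, had 368, 401, 400.1 and 375 CPM in WT, 385, 372, 411 and 366 CPM in Jrt;Sost-het and 409, 466, 391 and 425 CPM in Jrt;Sost-ko. *Pdia6*, an isomerase that also damps the sensors, had 174, 184, 189.6 and 177 CPM in WT, 180.1, 169, 209.8 and 184 CPM in Jrt;Sost-het and 190.4, 223, 179 and 206 CPM in Jrt;Sost-ko. Both overlapped between all groups, with Jrt;Sost-ko mouse 2 on top. The log2 fold change of Jrt;Sost-ko relative to Jrt;Sost-het was 0.15 ± 0.075 for *Pdia3* and 0.11 ± 0.089 for *Pdia6* (SE), and 0.096 and 0.051 without that mouse. *Erp44*, which retains client proteins through mixed disulfides, was the steadiest of the 4 in Jrt;Sost-het mice, at 61.5 ± 0.746 CPM (SD, n = 4).

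Of the 6 sensors and transcription factors, 4 had a log2 fold change above 0 in Jrt;Sost-ko relative to Jrt;Sost-het (median 0.10), 4 in Jrt;Sost-het against WT (0.039) and 5 in Jrt;Sost-ko against WT (0.11). Without Jrt;Sost-ko mouse 2 the first and the last median were 0.035 and 0.037. The 3 sensors had coefficients of variation of 4.24% (*Atf6*), 5.77% (*Eif2ak3*) and 8.10% (*Ern1*) over the 12 mice. *Atf6* had group means of 82.0 ± 1.26 CPM in WT, 80.2 ± 4.37 CPM in Jrt;Sost-het and 84.9 ± 3.07 CPM in Jrt;Sost-ko (SD, n = 4 each). *Eif2ak3*, which encodes PERK, had 63.9 ± 2.72, 63.6 ± 3.73 and 63.4 ± 5.29 CPM in the same order. *Ern1*, which encodes IRE1 alpha, had 68.4 ± 3.14, 73.0 ± 8.16 and 69.8 ± 5.33 CPM.

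Downstream of the sensors, *Xbp1*, whose mRNA is the substrate of IRE1 alpha, had 148, 138, 158.0 and 158.3 CPM in WT, 146, 155, 165 and 155 CPM in Jrt;Sost-het and 183, 209.0, 151 and 155 CPM in Jrt;Sost-ko. *Atf4*, the transcription factor translated when PERK is active, had 183, 190.2, 184 and 181 CPM in WT, 194, 192, 183 and 192 CPM in Jrt;Sost-het and 188, 240.4, 195 and 202 CPM in Jrt;Sost-ko. *Ddit3* encodes CHOP, the factor tied to cell death under lasting stress, and had 22.01, 21.3, 20.8 and 20.4 CPM in WT, 20.4, 22.9, 21.3 and 22.1 CPM in Jrt;Sost-het and 20.9, 30.0, 20.01 and 24.0 CPM in Jrt;Sost-ko. For all 3 genes Jrt;Sost-ko mouse 2 was the highest of the 12 mice, and the groups overlapped. In Jrt;Sost-het against WT, the log2 fold change was 0.045 ± 0.068 for *Xbp1*, 0.042 ± 0.0495 for *Atf4* and 0.035 ± 0.064 for *Ddit3* (SE), and the 95% interval of *Ddit3* ran from 0.926-fold to 1.13-fold. Leaving out 1 mouse took *Xbp1* to between 0.0057 (without WT mouse 2) and 0.075 (without Jrt;Sost-het mouse 1), *Atf4* to between 0.025 (without WT mouse 4) and 0.062 (without Jrt;Sost-het mouse 3), and *Ddit3* to between 0.0060 and 0.063 (without Jrt;Sost-het mice 2 and 1). Between the Jrt groups the values were 0.17 ± 0.10, 0.12 ± 0.080 and 0.13 ± 0.12. Without Jrt;Sost-ko mouse 2 they were 0.074 for *Xbp1*, 0.039 for *Atf4* and 0.00013 for *Ddit3*.

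**Figure D3:**
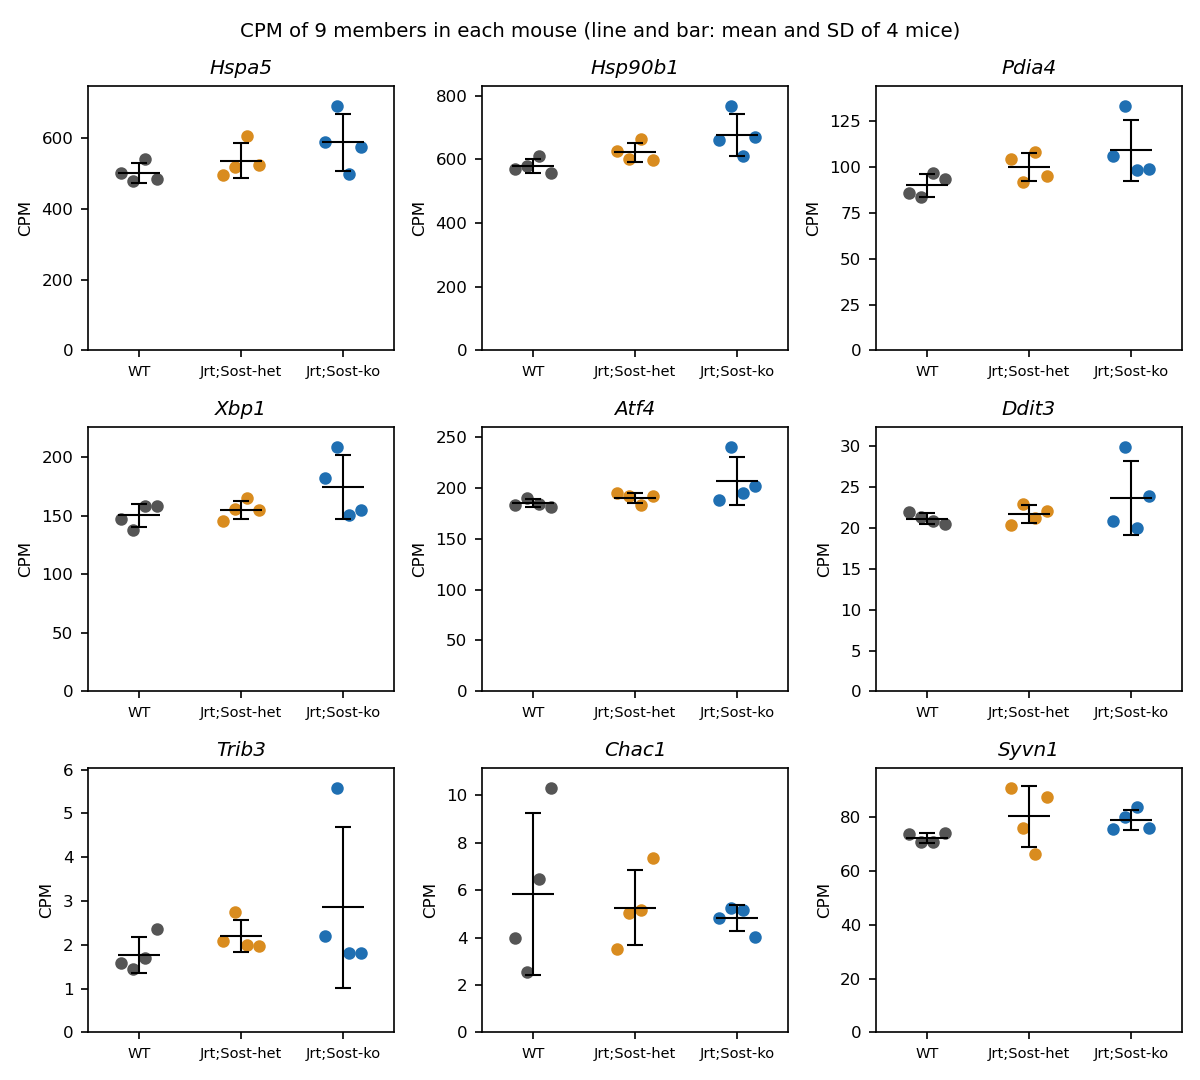
CPM (vertical axes, from 0) of 9 members in each mouse, with 1 point per mouse by group and the mean and SD of 4 mice as a line and bar. Jrt;Sost-ko mouse 2 is the highest point for *Hspa5* (692 CPM), *Hsp90b1* (769 CPM), *Pdia4* (133 CPM), *Xbp1* (209.0 CPM), *Atf4* (240.4 CPM), *Ddit3* (30.0 CPM) and *Trib3* (5.59 CPM), while *Chac1* is highest in WT mouse 4 (10.3 CPM).

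The 4 targets of ATF4 and CHOP differed in direction from each other. *Trib3*, a pseudokinase that feeds back on CHOP, had 1.58, 1.44, 1.71 and 2.36 CPM in WT, 2.09, 2.74, 1.99 and 1.97 CPM in Jrt;Sost-het and 2.21, 5.59, 1.81 and 1.80 CPM in Jrt;Sost-ko. A single mouse, Jrt;Sost-ko mouse 2, set its group mean: the log2 fold change against Jrt;Sost-het was 0.38 ± 0.38 (SE) with it and -0.18 without it. *Chac1*, which encodes a glutathione-degrading enzyme, had 3.96, 2.53, 6.46 and 10.3 CPM in WT, 3.53, 5.04, 5.15 and 7.34 CPM in Jrt;Sost-het and 4.84, 5.26, 5.17 and 4.03 CPM in Jrt;Sost-ko. The 4 WT mice spanned a 4.07-fold range, wider than that of both Jrt groups. These 2 genes rested on 42 to 187 counts per mouse for *Trib3* and on 74 to 372 for *Chac1*. WT mouse 4 was also the mouse with the most skeletal muscle and epidermal markers. Their part in the level of *Chac1* was not tested apart from the muscle covariate and the relation with muscle markers, both given further on.

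*Asns*, asparagine synthetase, had 78.7, 75.2, 66.7 and 56.4 CPM in WT, 67.0, 75.6, 64.1 and 57.0 CPM in Jrt;Sost-het and 67.4, 105, 61.7 and 84.6 CPM in Jrt;Sost-ko. *Ppp1r15a* encodes GADD34, which reverses the translation block set by PERK, and had 250.1, 243, 171 and 142 CPM in WT, 217, 216, 156 and 159 CPM in Jrt;Sost-het and 177, 238, 168 and 204 CPM in Jrt;Sost-ko. Both varied more than any member other than *Trib3* and *Chac1*, with a coefficient of variation of 18.9% for *Asns* and 19.2% for *Ppp1r15a* over the 12 mice. Between the Jrt groups, the log2 fold change was 0.28 ± 0.16 for *Asns* and 0.081 ± 0.15 for *Ppp1r15a* (SE), and 0.11 and -0.022 without Jrt;Sost-ko mouse 2. The median of the 4 genes was 0.18 in that comparison, -0.092 without Jrt;Sost-ko mouse 2, and -0.090 in Jrt;Sost-het against WT. In the latter, leaving out WT mouse 4 gave 0.47 for *Trib3*, 0.27 for *Chac1*, -0.16 for *Asns* and -0.25 for *Ppp1r15a*.

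The 11 genes of ER-associated degradation were split in direction between the Jrt groups, with 5 at a log2 fold change above 0 and a median of -0.00055. In Jrt;Sost-het against WT 7 of 11 were above 0 (median 0.0091), and in Jrt;Sost-ko against WT 8 of 11 (median 0.051). *Syvn1* encodes HRD1, the ubiquitin ligase at the centre of the retrotranslocation complex, and lies at chr19:6046576-6053712 on the plus strand. Its level was 73.9, 70.7, 70.7 and 74.2 CPM in WT, 91.1, 76.2, 66.4 and 87.7 CPM in Jrt;Sost-het and 75.8, 80.0, 83.9 and 76.0 CPM in Jrt;Sost-ko. The Jrt;Sost-ko mice all lay above the WT mice, whereas Jrt;Sost-het mice held both the highest and the lowest value. Against WT, the log2 fold change of Jrt;Sost-ko was 0.13 ± 0.055 (SE; unadjusted p = 0.0478 and adjusted p = 0.9996 in edgeR; exact two-sided permutation p = 0.0286), and that of Jrt;Sost-het was 0.15 ± 0.097 (unadjusted p = 0.159). The latter was 0.085 and 0.23 when Jrt;Sost-het mouse 1 and mouse 3, respectively, were left out. The partner of HRD1, *Sel1l*, had 118 ± 4.14 CPM in WT, 119 ± 1.90 CPM in Jrt;Sost-het and 122 ± 11.9 CPM in Jrt;Sost-ko (SD, n = 4 each).

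*Herpud1*, a scaffold of the same complex and a sensitive transcript of the stress response, had 76.2, 78.7, 83.4 and 94.0 CPM in WT, 84.6, 76.3, 89.9 and 87.8 CPM in Jrt;Sost-het and 78.3, 83.1, 89.95 and 86.2 CPM in Jrt;Sost-ko. Its lowest and highest values were both in WT mice. The log2 fold change was 0.025 ± 0.085 in Jrt;Sost-het against WT and -0.00068 ± 0.068 in Jrt;Sost-ko relative to Jrt;Sost-het (SE). Jrt;Sost-ko mouse 2, so high in the chaperones, lay in the middle of the 12 mice for this gene.

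Other members pick misfolded glycoproteins for disposal. The lectin *Os9* had 196, 201, 199 and 176 CPM in WT, 194, 198, 203 and 180.1 CPM in Jrt;Sost-het and 193, 185, 182 and 198 CPM in Jrt;Sost-ko. The mannosidase-like *Edem1* had 159 ± 10.04 CPM in WT, 160.4 ± 9.38 CPM in Jrt;Sost-het and 175 ± 11.1 CPM in Jrt;Sost-ko, and *Edem3* had 99.7 ± 5.18, 98.5 ± 6.33 and 109 ± 8.58 CPM (SD, n = 4 each). The log2 fold change between the Jrt groups was 0.13 for *Edem1* (unadjusted p = 0.087) and 0.15 for *Edem3* (unadjusted p = 0.076 in edgeR). *Edem2* of the same family had 39.2 ± 2.85, 38.2 ± 2.49 and 38.5 ± 2.65 CPM. None of these differences had an unadjusted p under 0.05.

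*Vcp* encodes the ATPase p97, which pulls the chains out of the membrane, and was the steadiest of the 37 members over the 12 mice, with a coefficient of variation of 3.65%. It had 364, 385, 389.6 and 388 CPM in WT, 361, 354, 386 and 373 CPM in Jrt;Sost-het and 371, 379.8, 379 and 402 CPM in Jrt;Sost-ko. The derlins are membrane proteins of the exit channel. *Derl1* had 139.6 ± 8.42, 137 ± 5.90 and 137 ± 12.1 CPM, and *Derl2* 49.98 ± 1.03, 52.6 ± 1.93 and 52.5 ± 3.62 CPM in WT, Jrt;Sost-het and Jrt;Sost-ko (SD, n = 4 each). *Derl3*, the derlin of specialised secretory cells such as plasma cells, had 1.66, 1.88, 1.71 and 1.55 CPM in WT, 2.09, 1.66, 2.55 and 2.22 CPM in Jrt;Sost-het and 1.96, 1.91, 1.81 and 1.97 CPM in Jrt;Sost-ko. Its log2 fold change of Jrt;Sost-het against WT was 0.32 ± 0.17 (SE; unadjusted p = 0.0982), and it rested on 49 to 76 counts per mouse.

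Across all roles, Jrt;Sost-ko mouse 2 was the highest of the 12 mice in 23 of the 37 members, among them 10 of the 12 chaperones, all 4 isomerases and 4 of the 6 sensors and factors, but 3 of the 11 genes of ER-associated degradation. Its members summed to 6951 CPM, where the other 3 mice of its group had 6178, 5761 and 6258 CPM. No other mouse was the highest in more than 3 members, and WT mouse 4 was the lowest in 9. Its library, with 34212528 counts, lay within the range of its group, and so did its 11 plasma cell markers (1273 CPM) and its muscle markers (2431 CPM). Its 9 osteocyte markers had the highest sum of the 12 mice (1263 CPM) and its osteoblast markers the second highest (64211 CPM). *Hsph1* (92.0 CPM), a heat shock protein of the cytosol, and *Mthfd2* (91.1 CPM) and *Nupr1* (127 CPM), which are targets of ATF4 outside the 37, were also higher in this mouse than in the other 11, and were named here after their values were seen. The part that any of these has in its high members was not tested.

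**Figure D4:**
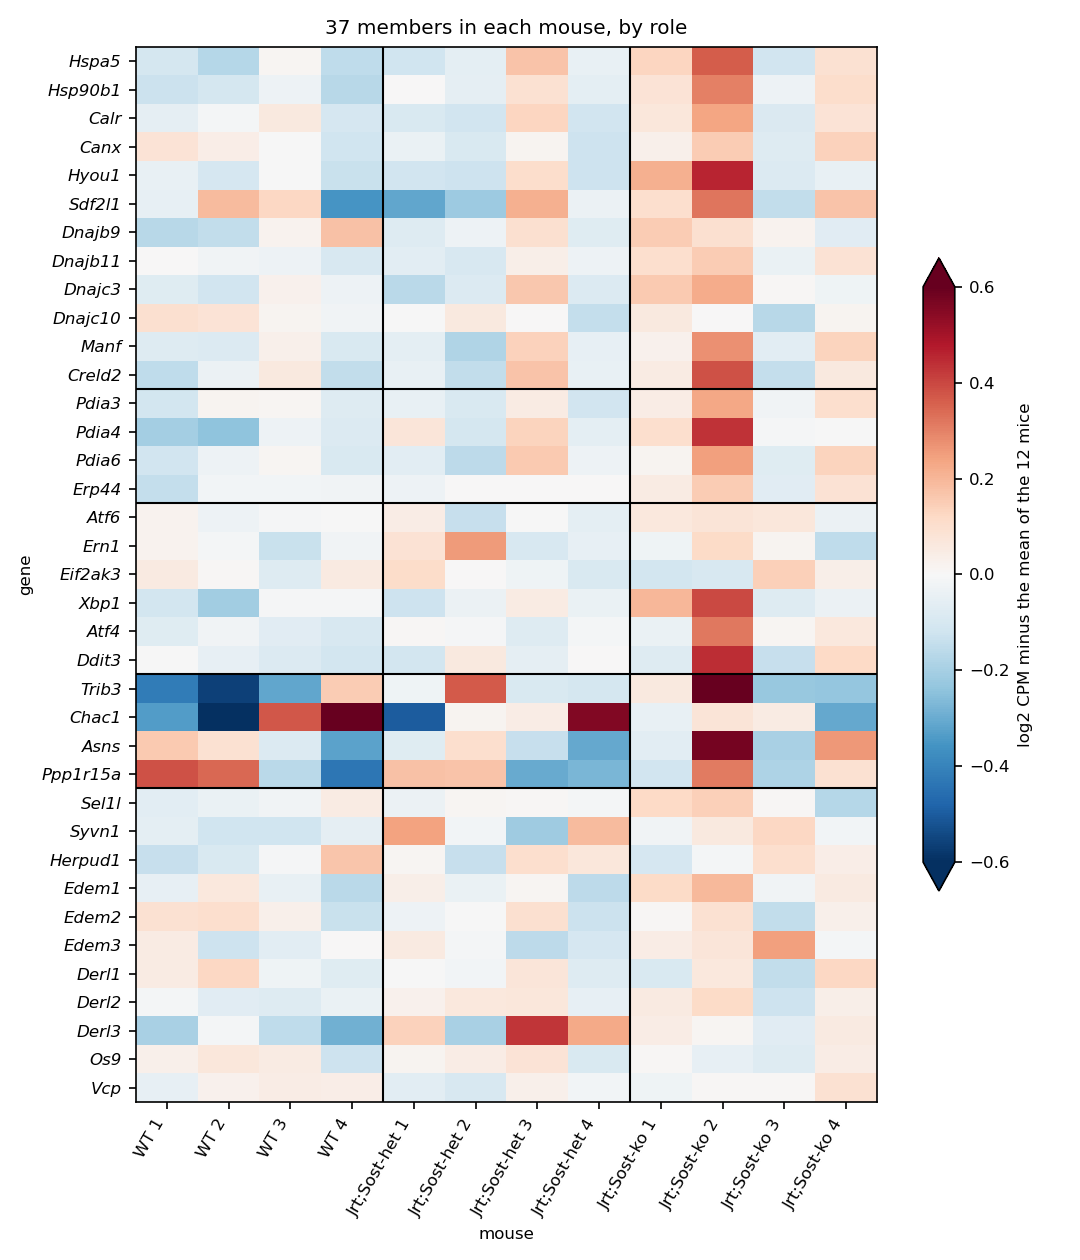
Log2 CPM of each member (rows, by role) in each mouse (columns, by group) relative to the mean of the 12 mice, with red above and blue below that mean and the colour ending at 0.6 in either direction. The column of Jrt;Sost-ko mouse 2, highest of the 12 in 23 of 37 rows, stands out in the chaperones, isomerases and factors, and the rows of *Trib3* and *Chac1* have the widest range over the 12 mice (3.89-fold and 4.07-fold).

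Split by the promoter element, the 9 members with an ERSE had a median log2 fold change of 0.13 in Jrt;Sost-ko relative to Jrt;Sost-het (7 above 0), 0.055 in Jrt;Sost-het against WT (7 above 0) and 0.14 in Jrt;Sost-ko against WT (9 above 0). The 24 members with a window but no ERSE had medians of 0.078 (18 above 0), 0.0033 (13 above 0) and 0.092 (18 above 0) in the same order. Leaving out Jrt;Sost-ko mouse 2, the medians between the Jrt groups were 0.052 with an ERSE and 0.026 without, and those of Jrt;Sost-ko against WT 0.098 and 0.041. Without Jrt;Sost-het mouse 3 the medians of Jrt;Sost-het against WT were -0.011 (4 of 9 above 0) and -0.0050 (10 of 24 above 0). The 2 sets were not tested against each other, and 6 of the 9 are chaperones.

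A wider view came from 116 further genes of the same pathways, of which 114 were found and 111 tested. They cover other folding and oxidation factors, other genes of degradation, other sensors and factors, other ATF4 and CHOP targets, and the translocon with ER export. None was called in any comparison by edgeR. At an unadjusted p under 0.05 there were 8 higher and 0 lower in Jrt;Sost-ko relative to Jrt;Sost-het, 0 in either direction in Jrt;Sost-het against WT, 5 higher and 0 lower in Jrt;Sost-ko against WT, and 1 higher and 0 lower with both Jrt groups against WT. Over all genes tested, the share higher at that threshold was 2.64%, 1.25%, 2.26% and 1.96% in this order, and the share lower 2.38%, 0.894%, 1.63% and 1.25%. Their medians were 0.068, 0.0068, 0.056 and 0.022 in this order, with 85, 61, 79 and 68 of the 111 above 0. Without Jrt;Sost-het mouse 3 the median of Jrt;Sost-het against WT was -0.0049, with 55 of 111 above 0. The 8 in the first comparison comprised 5 of 22 other ATF4 and CHOP targets and 3 of 19 other sensors and factors, where 2.64% of all genes were higher. When Jrt;Sost-ko mouse 2 was left out, 3 of the 111 were higher in that comparison (2 and 1 in these lists) and 0 lower, against 3.01% of all genes in either direction in the same fit, and the median was 0.041.

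Among these, *Creb3l3*, a membrane-bound transcription factor released by proteolysis as ATF6 is, had 3.86, 3.70, 5.30 and 6.80 CPM in WT, 6.60, 5.89, 5.71 and 4.61 CPM in Jrt;Sost-het and 7.01, 7.502, 8.26 and 7.87 CPM in Jrt;Sost-ko. The Jrt;Sost-ko mice were above all others. The log2 fold change was 0.43 ± 0.13 against Jrt;Sost-het (SE; unadjusted p = 0.00974, adjusted p = 0.901 in edgeR) and 0.64 ± 0.20 against WT (unadjusted p = 0.0132, adjusted p = 0.9996). With both Jrt groups against WT it was 0.43 ± 0.17 (unadjusted p = 0.0253).

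*Phgdh*, the first enzyme of serine synthesis, had 43.7, 57.9, 55.9 and 53.2 CPM in WT, 43.4, 44.3, 55.7 and 49.8 CPM in Jrt;Sost-het and 53.7, 56.1, 59.1 and 64.3 CPM in Jrt;Sost-ko, a log2 fold change of 0.28 ± 0.091 between the Jrt groups (SE; unadjusted p = 0.0144 in edgeR). *Aldh18a1*, which makes a precursor of proline, had 61.0, 57.9, 59.3 and 59.0 CPM in WT, 64.1, 58.6, 57.4 and 55.7 CPM in Jrt;Sost-het and 64.7, 70.7, 67.0 and 63.5 CPM in Jrt;Sost-ko, a log2 fold change of Jrt;Sost-ko against WT of 0.17 ± 0.054 (unadjusted p = 0.0132). Both had an adjusted p above 0.9. *Svip*, an inhibitor of degradation, was the pathway gene with the smallest p in Jrt;Sost-het against WT, at -0.18 ± 0.11 (unadjusted p = 0.139).

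For contrast, the heat shock genes of the cytosol (14 genes), which answer to unfolded protein outside the ER, had a median of 0.15 in Jrt;Sost-ko relative to Jrt;Sost-het. Of these, 12 were above 0. At an unadjusted p under 0.05 there were 4 higher, against 2.64% of all genes, and 0 were called. Leaving out Jrt;Sost-ko mouse 2 gave 2 higher and 0 lower, against 3.01% of all genes in either direction, with a median of 0.13. *Hsp90aa1* stood at 474, 507, 462 and 358 CPM in WT, at 397, 402.5, 450.0 and 417 CPM in Jrt;Sost-het and at 474, 559, 459 and 589 CPM in Jrt;Sost-ko. The Jrt groups did not overlap, with a log2 fold change of 0.32 ± 0.094 (SE; unadjusted p = 0.00760 in edgeR), while WT overlapped with both. *Hsph1* stood at 44.6, 51.4, 59.7 and 43.4 CPM in WT, at 51.7, 43.6, 59.4 and 67.0 CPM in Jrt;Sost-het and at 74.6, 92.0, 60.2 and 63.8 CPM in Jrt;Sost-ko, a log2 fold change of Jrt;Sost-ko against WT of 0.55 ± 0.15 (unadjusted p = 0.0065). With both Jrt groups against WT, *Hsph1* (0.35 ± 0.14) and *Dnaja1* (0.16 ± 0.065) had the smallest p of this list, 0.0303 and 0.0317. Of the 14 genes, 7 had a log2 fold change above 0 in Jrt;Sost-het against WT, with a median of -0.022. Without Jrt;Sost-het mouse 3 this was 5 of 14, with a median of -0.049.

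The mitochondrial stress genes (10 genes) had a median of 0.059 in Jrt;Sost-ko relative to Jrt;Sost-het, with 10 of 10 above 0. Without Jrt;Sost-ko mouse 2 this median was 0.080, with 9 of 10 above 0. In Jrt;Sost-het against WT it was -0.083, with 1 above 0. There *Lonp1* (-0.11 ± 0.061, SE) and *Hspe1* (-0.11 ± 0.066) had unadjusted p-values of 0.112 and 0.135 in edgeR. The 16 genes of ER-phagy and autophagy had medians of -0.027 and -0.0058 in these comparisons and of -0.064 in Jrt;Sost-ko against WT. Without Jrt;Sost-het mouse 3 their medians were -0.047 relative to Jrt;Sost-het and -0.018 in Jrt;Sost-het against WT. Without Jrt;Sost-ko mouse 2 the median between the Jrt groups was -0.048. No gene of either list was called.

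The members were also set against the level of *Col1a1*, of plasma cell markers and of skeletal muscle markers across the 12 mice, 111 relations in all. *Col1a1* ranged from 8953 CPM in WT mouse 2 to 29945 CPM in Jrt;Sost-ko mouse 3. None of the 111 relations passed at an adjusted p of 0.05, with the smallest adjusted permutation p at 0.110 for Pearson's r and 0.061 for Spearman's rho. The latter was that of *Asns* with the muscle markers (rho = -0.87, permutation p = 0.00055; r = -0.66, p = 0.0241, adjusted 0.382), with r = -0.84 without the 2 mice farthest from the median and -0.60 within groups. Unadjusted p-values of r under 0.05 numbered 6 with *Col1a1*, 2 with plasma cell markers and 5 with muscle markers. By Spearman's rho, *Pdia6*, *Sdf2l1*, *Creld2*, *Pdia3*, *Edem1*, *Derl1* and *Calr*, besides *Derl3*, were under 0.05 with the plasma cell markers. Their rho lay between 0.59 and 0.73, with unadjusted permutation p between 0.00802 and 0.0484. Without the 2 mice farthest from the median, r was 0.41 for *Pdia6*, 0.18 for *Sdf2l1*, 0.29 for *Creld2* and 0.32 for *Pdia3*. It was 0.24 for *Edem1*, 0.44 for *Derl1* and 0.16 for *Calr*. With *Col1a1*, *Edem3*, *Syvn1*, *Edem2*, *Trib3*, *Os9* and *Dnajc10* had an unadjusted permutation p of rho under 0.05. With the muscle markers, *Asns*, *Ppp1r15a*, *Chac1*, *Canx*, *Derl1*, *Edem1* and *Edem2* did. *Edem3* had the highest r with *Col1a1* (r = 0.73, permutation p = 0.00601, adjusted 0.175; rho = 0.78, p = 0.00436), and r was 0.56 without the 2 mice farthest from the median and 0.68 within groups. *Derl3* had the highest r with the plasma cell markers (r = 0.75, permutation p = 0.00382, adjusted 0.175; rho = 0.73, p = 0.00802), with 0.64 without 2 mice and 0.79 within groups. *Derl1* had the lowest r with the muscle markers (r = -0.79, permutation p = 0.00099, adjusted 0.110; rho = -0.76, p = 0.00632), with -0.64 without 2 mice and -0.87 within groups. *Canx* had r = -0.72 with the same markers (permutation p = 0.00631, adjusted 0.175; rho = -0.78, p = 0.00435), with -0.75 without 2 mice and -0.67 within groups. *Chac1*, high in WT mouse 4, had r = 0.72 with the muscle markers (permutation p = 0.00987, adjusted 0.219; rho = 0.79, p = 0.00339), with 0.81 without 2 mice and 0.74 within groups, while *Ppp1r15a* had r = -0.64 (permutation p = 0.0183, adjusted 0.339; rho = -0.80, p = 0.00270), with -0.92 and -0.65.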

How the data were processed

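The authors mapped reads with STAR (GRCm38), and the counts they deposited are whole numbers per Ensembl gene, not normalized; the counting tool and its strand setting are not given in the sources used here. Only this count table was used here. The deposited tables of single mice were left out, as were the authors' comparison tables, which hold fold changes and p-values. Groups came from the labels, and mice are numbered in the order of deposition. Nothing in the labels ties a mouse to a litter, and p-values measure the spread between these mice.

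For each pair of groups the 8 mice concerned were fitted with edgeR 4.0.16 (filterByExpr, TMM, glmQLFit, glmQLFTest) in R 4.3.3, and both Jrt groups against WT on all 12 mice. P-values were adjusted by Benjamini-Hochberg over all genes tested, with a threshold of 0.05; adjusted p-values in the text come from edgeR. CPM are scaled to 1000000 counts on genes after TMM, log2 CPM used a prior count of 2, and exon lengths and positions are from GENCODE M21. Single members were compared by exact two-sided permutation tests (70 arrangements of 8 mice). Relations across mice used 100000 permutations, with adjustment over all 111. The function calling genes was tested on simulated data. In pairs of mice of a group, the chi-square of counts per degree of freedom was 25.8 or more, so no group appeared to hold 1 library deposited more than once; pairs across groups were not compared.

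The members, the pathway lists, the heat shock, mitochondrial and ER-phagy lists and the markers of osteoblast, osteocyte, osteoclast, skeletal muscle, erythroid, neutrophil, plasma cell, B cell, adipocyte, chondrocyte and epidermis were chosen with earlier results of these data known. Values in every mouse are given for members with an unadjusted p under 0.05 in any comparison, the 2 most abundant of each role and *Hspa5*, *Ddit3*, *Atf4*, *Xbp1*, *Herpud1*, *Derl3*, *Trib3* and *Chac1*. Of the other lists the 3 genes with the smallest p in each comparison are named. Alternatives were DESeq2 1.42.0, its size factors, limma-voom 3.58.1 with sample weights, upper-quartile scaling, at least 10 counts per mouse, no filter, scaling without muscle, erythroid and neutrophil markers, all 12 mice in 1 fit, the 8 Jrt mice as 1 group, muscle markers as a covariate and leaving out each mouse. Leaving out WT mice 3 and 4 together, and the counts by role, by promoter element and by pathway list without single mice, were added after the data were seen. Motifs were searched in RefSeq promoter windows, and *Atf6*, *Derl1*, *Manf* and *Hyou1* had none in the table. Of the 37 members, 12 share exon bases with another gene, 4 with a gene on the same strand and 11 with a gene on the other.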

Additional observations from a re-analysis of the deposited data

Results flagged for a closer look

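Of 69 sets of 4 mice examined (named members and role sums in each group), 5 held a mouse far from the other 3, as judged by the gap to its neighbour over the range of the group; 3.45 are given by chance, about 1 in 20. *Calr* in Jrt;Sost-het had mouse 3 at 799 CPM and the others between 673 and 685 CPM, a gap of 0.905 of the range. The 12 chaperones summed in Jrt;Sost-het had the same mouse at 3243 CPM and the others between 2840 and 2869 CPM (0.928). *Trib3* in Jrt;Sost-het had mouse 2 at 2.74 CPM and the others at or below 2.09 CPM (0.85). *Trib3* in Jrt;Sost-ko had mouse 2 at 5.59 CPM and the others at or below 2.21 CPM (0.893). The 6 sensors and transcription factors summed in Jrt;Sost-ko had mouse 2 at 702 CPM and the others between 589.6 and 605 CPM (0.863).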

How the results depend on the processing

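No member was called in any comparison under any alternative run. Of 1350 values of the 18 named members under alternatives, 1284 kept their direction and side of the threshold and 66 changed sign. The counts of all genes called, 1, 0, 1 and 1 in Jrt;Sost-ko relative to Jrt;Sost-het, Jrt;Sost-het against WT, Jrt;Sost-ko against WT and both Jrt groups against WT, depended on the tool; the cause was not tested. DESeq2 called 15 in the first, 14 in the third and 8 in the last. Limma-voom called 0, 2 and 0 there, the muscle covariate gave 0 in the first, no filter 2 in the third, and the 8 Jrt mice as 1 group 0 in the last. Leaving out 1 mouse gave between 0 and 3, between 0 and 0, between 0 and 2, and between 0 and 1. The members' median then lay between 0.039 and 0.15 in Jrt;Sost-ko relative to Jrt;Sost-het, between -0.017 and 0.023, between 0.062 and 0.15, and between 0.040 and 0.080 in the others.

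Sign changes in Jrt;Sost-ko relative to Jrt;Sost-het were *Chac1* 0.0030 with limma-voom, *Herpud1* 0.0066 with no filter, and *Ppp1r15a* -0.011, *Herpud1* 0.0040 and *Chac1* 0.059 with the muscle covariate. In Jrt;Sost-het against WT they were *Os9* -0.0099 with limma-voom, *Ppp1r15a* 0.026 and *Herpud1* -0.0068 with the muscle covariate, and *Pdia3* 0.0041, *Os9* -0.028 and *Chac1* 0.70 without WT mice 3 and 4. In Jrt;Sost-ko against WT they were *Vcp* -0.0068 with upper-quartile scaling, -0.0024 with limma-voom, -0.0066 with no filter, -9.55e-05 with at least 10 counts and -0.0092 with scaling without marker genes, and *Chac1* 0.038 with the muscle covariate and 0.57 without WT mice 3 and 4. With both Jrt groups they were *Asns* -0.086, *Vcp* 0.0048 and *Chac1* 0.63 without these mice.

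Leaving out 1 mouse turned the sign of named members over these ranges: in both Jrt groups against WT, *Asns* from -0.015 to 0.13, *Chac1* from -0.45 to 0.22, *Herpud1* from -0.015 to 0.094, *Os9* from -0.046 to 0.011 and *Ppp1r15a* from -0.20 to 0.049. In Jrt;Sost-het against WT, *Calr* from -0.081 to 0.011, *Chac1* from -0.39 to 0.27, *Herpud1* from -0.012 to 0.083, *Os9* from -0.044 to 0.039, *Pdia3* from -0.045 to 0.0099, *Pdia6* from -0.028 to 0.078 and *Ppp1r15a* from -0.25 to 0.0092. In Jrt;Sost-ko relative to Jrt;Sost-het, *Chac1* from -0.27 to 0.083, *Herpud1* from -0.047 to 0.029, *Ppp1r15a* from -0.022 to 0.16, *Syvn1* from -0.11 to 0.040 and *Trib3* from -0.18 to 0.55. In Jrt;Sost-ko against WT, *Chac1* from -0.52 to 0.16, *Herpud1* from -0.016 to 0.087, *Ppp1r15a* from -0.17 to 0.089 and *Vcp* from -0.018 to 0.018.

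No paired analysis was possible because the labels tie no mouse to a litter or to a mouse of another group. Each group holds 4 mice. In Jrt;Sost-het against WT the interval of *Derl3* reached 1.65-fold, and that of *Chac1* ran from 0.463-fold to 1.748-fold.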
